A study of Mus musculus with 14 samples.

Results

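The genes described here are 10 that activated and memory T-cells are known to carry at raised levels: Cd44, Cd69, S100a4, S100a6, Lgals1, Itgb1, Anxa2, Id2, Cxcr6 and Ahnak. They were chosen by name, with earlier results of these data known, and every probe of the array that carries one of these names was taken. This gave 21 probes of the 56605 different probes on the array, or 10 of 36870 gene names. RNA from CD4+ T-cells was measured on 14 one-colour expression arrays, 7 labelled Roquin san/+ (replicates A to G) and 7 labelled wild-type (replicates A to G). Roquin san/+ mice carry one copy of the sanroque allele, a point mutation in Roquin, an RNA-binding protein that helps to clear messenger RNAs in T-cells, and the wild-type mice carry none. No treatment is given in the labels for either group. The age of the mice, the organ from which the cells came, the way they were isolated and whether each array holds the cells of 1 mouse are not given in the sources used here, so that the p-values measure the spread between these arrays. The probe of Cd4 itself was well above background on all 12 arrays with correctly placed spots, which does not show how pure the cells were.

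A naive T-cell that meets its antigen first puts out early activation proteins such as CD69, and the cells that remain afterwards as effector or memory cells carry more CD44, more of the adhesion receptor integrin beta 1 and more of a group of calcium-binding proteins. That group includes the S100 proteins, small dimeric proteins that bind target proteins when calcium rises, and the annexins, which bind membrane phospholipids. In the same cells the transcriptional regulator Id2 and the chemokine receptor CXCR6 mark effector differentiation and entry into tissues. In bulk RNA, more cells of an activated type and more RNA per cell cannot be told apart.

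Levels are the log2 of the processed spot signal less the 75th percentile of that array, so that 0 is the 75th percentile and 1 unit is a doubling. Levels of different probes are not comparable with each other. Spots lay 2 rows off their probe names on 1 array of each genotype, replicate G of Roquin san/+ and replicate E of wild-type. They were moved back first, and the 2 arrays' correlations with the median array rose from 0.0143 and 0.0149 to 0.909 and 0.889. Slide 1 held 5 Roquin san/+ arrays (A, B, C, F and G) and 2 wild-type arrays (F and G), and slide 2 held 2 Roquin san/+ arrays (D and E) and 5 wild-type arrays (A to E). In brightness, the 75th percentile over all noncontrol probes went from 84.6 on Roquin san/+ replicate C to 811 on Roquin san/+ replicate G. Having 14 arrays limits the precision. Of 32836 probes tested with limma, 0 (0%) had an adjusted p below 0.05. At an unadjusted p below 0.05 there were 997, of which 816 (2.49% of those tested) were higher and 181 (0.551%) lower in Roquin san/+.

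A probe reads only the stretch of RNA that it matches, and the probes of one gene can therefore differ. S100a6 was read by a single probe. That probe, one of the Anxa2 probes and the first Itgb1 probe below have a reading frame without a stop codon through all 60 bases. The variant Itgb1 probe has an open frame too, but a different one from the first probe's over the bases they share. In the first probe's frame it holds a stop codon (tga) ahead of those bases. The Itgb1 probes are shown because they share a run of 23 bases, in capitals, and differ around it. The first lies at chr8:131250081-131255976 and the second, taken from a variant transcript, at chr8:131250931-131255949, both on the plus strand of mm9 and both spanning an intron. The S100a6 probe lies at chr3:90418160-90418219 and the Anxa2 probe at chr9:69330846-69331620, also on the plus strand of mm9.
Itgb1, first probe: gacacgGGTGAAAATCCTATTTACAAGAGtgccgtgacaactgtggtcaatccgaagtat
Itgb1, variant probe: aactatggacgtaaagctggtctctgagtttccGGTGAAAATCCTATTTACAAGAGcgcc
S100a6: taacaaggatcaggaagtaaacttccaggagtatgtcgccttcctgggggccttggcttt
Anxa2, coding probe: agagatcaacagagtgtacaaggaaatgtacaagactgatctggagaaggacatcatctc

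The 2 S100 genes had the largest differences among the members by their brightest probes. S100a4 encodes a calcium-binding protein linked to cell motility. Its levels on the Roquin san/+ arrays ran from 3.28 to 4.34 with a median of 4.01, and on the wild-type arrays from 2.02 to 3.49 with a median of 3.02. All but Roquin san/+ replicate C, 6 of 7 arrays, lay above every wild-type array, and the groups overlapped through replicate C and the wild-type arrays C (3.32) and E (3.49). The mean level was 3.90 ± 0.38 (SD, n = 7) in Roquin san/+ and 2.88 ± 0.55 (SD, n = 7) in wild-type. The log2 difference was 1.02 (SE 0.254), a 2.02-fold higher signal with a 95% interval of 1.39 to 2.94, at an unadjusted limma p of 0.00123. The two-sided exact permutation test over all arrangements of the arrays gave p = 0.00175. With Benjamini-Hochberg adjustment over all probes the limma p was 0.885, and S100a4 was the 12th of 32836 probes when these were ordered by p.

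S100a6, which encodes a calcium-binding protein also called calcyclin, gave levels of 1.57 to 3.39 with a median of 2.34 in Roquin san/+ and of 0.79 to 2.03 with a median of 1.87 in wild-type. Again 6 of 7 Roquin san/+ arrays lay above every wild-type array, and replicate C was the exception. The mean levels were 2.55 ± 0.64 (SD, n = 7) and 1.61 ± 0.49 (SD, n = 7). Their log2 difference was 0.94 (SE 0.297), a 1.92-fold higher signal with a 95% interval of 1.23 to 2.98. The exact permutation p was 0.00816, the unadjusted limma p 0.00666 and the adjusted limma p 0.885. S100a4 and S100a6 lie close together on chromosome 3, with S100a5 as the 1 gene between them.

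Anxa2 encodes annexin A2, which binds membranes and forms a complex with S100a10. Its brightest probe read 1.38 to 3.47 (median 1.74) in Roquin san/+ and 0.30 to 1.62 (median 1.22) in wild-type. The top of the Roquin san/+ range was replicate F alone, with the next array at 1.97, and 4 of 7 Roquin san/+ arrays lay above every wild-type array. Mean levels were 1.91 ± 0.72 (SD, n = 7) and 1.09 ± 0.53 (SD, n = 7), with a log2 difference of 0.82 (SE 0.323), an exact permutation p of 0.00758, an unadjusted limma p of 0.0230 and an adjusted limma p of 0.885. The coding probe printed above was dim and differed by 0.66 (SE 0.433, exact permutation p = 0.186), and another Anxa2 probe was well above background on 1 array and was not tested. S100a10, the partner of Anxa2, had a log2 difference of -0.05 (SE 0.287).

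**Figure D1:**
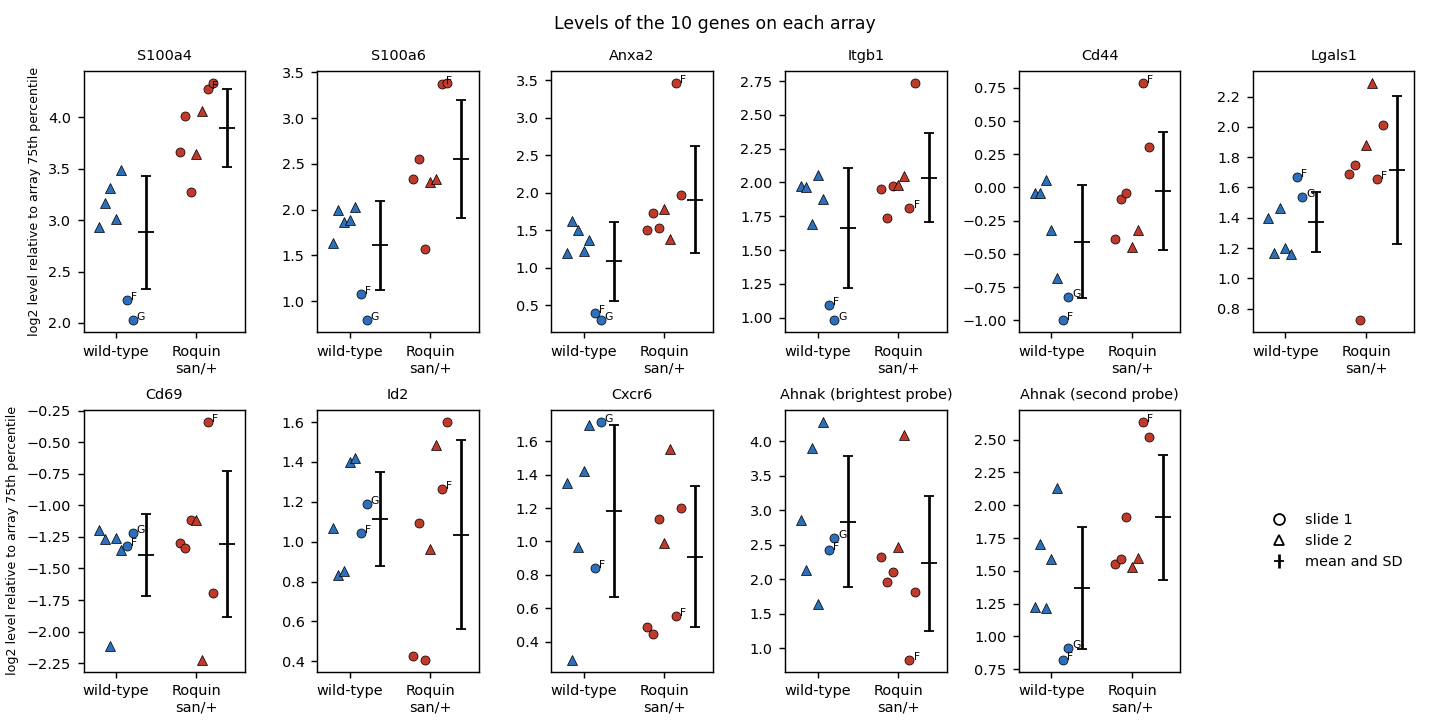
Each panel shows one gene, with the log2 level relative to the array's 75th percentile on the vertical axis for the 7 wild-type (blue) and 7 Roquin san/+ (red) arrays; circles are slide 1, triangles slide 2, bars the mean and SD, and the letters F and G name wild-type replicates F and G and Roquin san/+ replicate F. In S100a4 and S100a6, 6 of 7 Roquin san/+ arrays lie above all wild-type arrays, and the lowest wild-type points are replicates F and G, the wild-type arrays of slide 1.

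Ahnak encodes a very large scaffold protein that binds S100a10 and annexin A2 and has a part in calcium entry of T-cells. Its 3 probes did not go the same way. The brightest, which stands for the gene by the rule used for all members, lies at chr19:9074153-9074212 (mm9, plus strand) and belongs to a transcript other than that of the second probe. It read 0.83 to 4.09 (median 2.11) in Roquin san/+ and 1.64 to 4.28 (median 2.59) in wild-type, a log2 difference of -0.60 (SE 0.479, exact permutation p = 0.254). The difference was -0.91 without Roquin san/+ replicate E, -0.37 without replicate F and -0.36 without wild-type replicate E. The second probe, at chr19:9093549-9093608, read 1.53 to 2.64 (median 1.60) in Roquin san/+ and 0.82 to 2.13 (median 1.22) in wild-type. Its log2 difference was 0.53 (SE 0.252, exact permutation p = 0.0565). The remaining, dim probe, at chr19:9151349-9151408, differed by 0.58 (SE 0.276, exact permutation p = 0.0210, unadjusted limma p = 0.0528). On wild-type replicate E it stood at the lowest signal of that array (-4.00). Over the 14 arrays the brightest probe had a Pearson's r of -0.332 (rho -0.411) with the second and of -0.454 (rho -0.679) with the dim probe, whereas those 2 had an r of 0.777 (rho 0.635) with each other.

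The brightest Ahnak probe holds a run of alternating A and G, and so do the probes whose pattern was most like its own. The 3 most alike genes, Cd300lf, Cdcp1 and Rabgap1, had r = 0.996, 0.995 and 0.993 with it over the deviations of the 14 arrays from their genotype means (rho 0.996, 0.996 and 0.982). The 30 bases around the run in each of the 4 probes are printed with the run in capitals, since these letters are what the probes visibly share. The other probes lie, in the order printed, at chr11:114977796-114977855 and chr9:123090891-123090950 on the minus strand and at chr2:37351140-37351199 on the plus strand of mm9.
Ahnak, brightest probe: cgcaaagaaAGAGAGAGAGAGAccgataca
Cd300lf: tttaaggaggaAGAGAGAGAGAGAGAGAGt
Cdcp1: acaggatcaAGAGAGAGAGAGtctgcaagt
Rabgap1: gagtgagtcAGAGAGAGAGAGgaggaaaac

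The motif AGAGAGAG, read on the probe's own strand, is present in 139 of the other tested probes (0.423%). Their median r with the brightest Ahnak probe was 0.894, and 94 of the 139 (67.6%) had an r above 0.8. Of the 32588 tested probes with neither AGAGAGAG nor CTCTCTCT the median r was 0.00613, and 0.620% had an r above 0.8. The 108 probes with CTCTCTCT but not AGAGAGAG had a median r of -0.179, and 0 of them passed 0.8. Of the 200 probes most like the brightest Ahnak probe, 86 held AGAGAGAG. It is the 1 probe among the 21 of the members that holds the run. These are correlations across probes on the same 14 arrays, which are not independent of each other, and the part of the run in the signal was not tested.

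**Figure D2:**
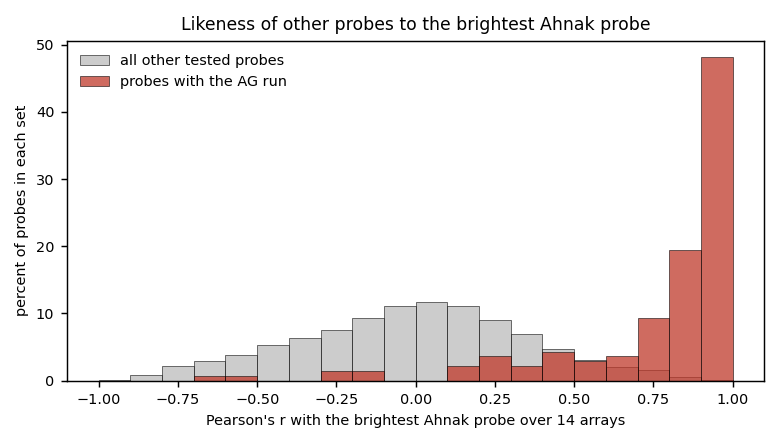
The horizontal axis gives Pearson's r of each tested probe with the brightest Ahnak probe over the deviations of the 14 arrays from their genotype means, and the vertical axis the percentage of probes in each bin of 0.1. The 139 probes with the AG run (red) pile up near 1, with a median of 0.894, while all other probes (grey) centre on 0.

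Cd44, the hyaluronan receptor that is the usual surface marker of antigen-experienced T-cells, was read by 3 probes. The brightest gave -0.45 to 0.79 (median -0.09) in Roquin san/+ and -1.001 to 0.05 (median -0.32) in wild-type. Only replicates F (0.79) and G (0.30) of Roquin san/+ lay above all wild-type arrays, and wild-type replicates F and G were the lowest of the 14. The log2 difference was 0.38 (SE 0.236, exact permutation p = 0.128). The probe at the end of the coding sequence differed by 0.26 (SE 0.217, exact permutation p = 0.242), and a dim probe further upstream in the transcript, well above background on 10 arrays, by 0.22 (SE 0.573, exact permutation p = 0.748).

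Itgb1 encodes integrin beta 1, which pairs with alpha 4 and other alpha chains to bind fibronectin and VCAM-1. Its brightest probe read 1.74 to 2.74 (median 1.97) in Roquin san/+ and 0.98 to 2.05 (median 1.88) in wild-type, with a log2 difference of 0.37 (SE 0.217, exact permutation p = 0.125). The 2 groups lay over each other except at their ends, where Roquin san/+ replicate G was alone at the top and wild-type replicates F and G at the bottom. Of the 2 probes printed above, the first differed by 0.27 (SE 0.225, exact permutation p = 0.248), and the variant probe, well above background on 7 arrays, by 0.61 (SE 0.677, exact permutation p = 0.422). Itga4, the alpha 4 chain, had a log2 difference of 0.20 (SE 0.166), and Itgal, the alpha chain of the integrin LFA-1, of 0.42 (SE 0.161).

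Lgals1 encodes galectin-1, a lectin that binds cell surface sugars. Its levels were 0.72 to 2.29 (median 1.75) in Roquin san/+ and 1.16 to 1.67 (median 1.40) in wild-type. In Roquin san/+, 5 of 7 arrays lay above every wild-type array, whereas replicate C was the lowest of all 14. The log2 difference was 0.34 (SE 0.211, exact permutation p = 0.111).

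The differences of Cd69, Id2 and Cxcr6 lay within the spread between arrays. Cd69 encodes an early activation antigen that holds cells in tissue by taking the receptor S1pr1 off the surface. Its brightest probe read -2.22 to -0.34 (median -1.29) in Roquin san/+ and -2.12 to -1.20 (median -1.27) in wild-type, a log2 difference of 0.09 with a 95% interval of -0.45 to 0.63. The other Cd69 probe differed by 0.09 too, although the 2 probes had an r of only 0.298 (rho 0.0989) with each other over 14 arrays. S1pr1 differed by -0.24 (SE 0.231).

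Id2, an inhibitor of E-protein transcription factors, read 0.41 to 1.60 (median 1.09) in Roquin san/+ and 0.84 to 1.42 (median 1.07) in wild-type, so that the wild-type range lay inside the other. The difference was -0.08 (95% interval -0.53 to 0.37), and 0.09 (95% interval -0.41 to 0.58) for its second probe. Id3, the related inhibitor that naive cells carry, differed by 0.06 (SE 0.365).

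Cxcr6, the receptor for the chemokine CXCL16, was the member whose separate probes were most alike, with r = 0.944 (rho 0.930). Its brightest probe read 0.45 to 1.56 (median 0.99) in Roquin san/+ and 0.29 to 1.72 (median 1.35) in wild-type. Only 1 of 7 Roquin san/+ arrays lay above the wild-type median, and the log2 difference was -0.27 (95% interval -0.81 to 0.27, exact permutation p = 0.293). The ligand gene Cxcl16 differed by 0.27 (SE 0.514). Its probe was dim, and its highest level in Roquin san/+ (-4.32) and in wild-type (-4.00) was the lowest signal of a moved array.

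**Figure D3:**
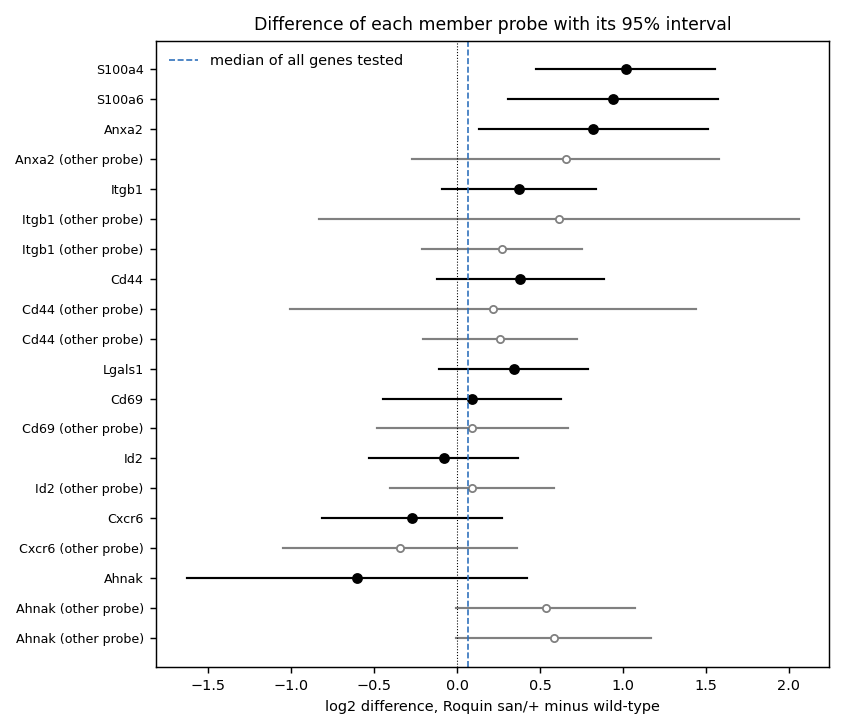
Points are log2 differences (Roquin san/+ minus wild-type) of the 20 tested member probes and lines their 95% intervals; filled points are the brightest probe of each gene, open points its other probes, and the dashed line is the median of all genes tested. The intervals of S100a4, S100a6 and the brightest Anxa2 probe lie above 0, and the 3 Ahnak probes split to both sides.

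Over the 10 members by their brightest probes, 7 were higher and 3 lower in Roquin san/+, beside 57.8% higher among all 21559 genes tested. Their median log2 difference was 0.36, and that of all genes 0.07. Of the 20 member probes tested, 3 had an unadjusted limma p below 0.05, all of them higher in Roquin san/+ (S100a4, S100a6 and Anxa2), beside 2.49% of all probes, and 0 had an adjusted p below 0.05. None of the 20 separated the 7 Roquin san/+ arrays from the 7 wild-type arrays without overlap, as did 0.0335% of all probes with Roquin san/+ higher and 0.00914% with it lower. The direction of the probes with an unadjusted p below 0.05 moved with the scaling: 816 higher against 181 lower here, 423 against 366 with quantile normalization, 566 against 426 with the 75th percentile taken over all probes, 710 against 811 in the authors' log2 values and 1114 against 95 with normexp background correction. Over all tested probes the share higher in Roquin san/+ was 56.01% here, 40.15%, 42.38% and 40.38% under the next 3 and 72.95% with normexp. The median of all probes moved with it, from 0.05 here to -0.08, -0.07, -0.07 and 0.22 in the same order. Under all 4 of these scalings the members kept their direction, except that Cd69 turned to -0.03 with the percentile over all probes. With normexp 7 of 10 members were higher, with a median of 0.30 beside the 0.22 of all probes.

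Genotype and slide overlapped only in part, and the members differed between slides in how far the genotypes lay apart. On slide 1, with 5 Roquin san/+ and 2 wild-type arrays, 12 of the 20 probes were higher without overlap (background 18.5% of all probes) and 1 lower (background 6.44%). Probes of the same gene recur among the 12. They were those of S100a4 and S100a6, all probes of Cd44 and Itgb1, both tested Anxa2 probes and the second and dim Ahnak probes. The variant Itgb1 probe was not well above background on either wild-type array of this slide. On slide 2, with 2 Roquin san/+ and 5 wild-type arrays, 3 of 20 were higher without overlap (background 3.13%) and 0 lower. Those 3 were S100a4, S100a6 and Lgals1. The S100a4 difference was 1.79 (SE 0.348) on slide 1 and 0.67 (SE 0.271) on slide 2, with an exact permutation p of 0.0476 on each, the smallest that 21 arrangements allow. With slide as a block it was 1.23 (SE 0.257). For S100a6 the values were 1.71 on slide 1, 0.43 on slide 2 and 1.07 with the block. Anxa2 went from 1.69 on slide 1 to 0.20 on slide 2, Itgb1 from 1.01 to 0.10 and Cd44 from 1.03 to -0.18, whereas Lgals1 went from -0.04 to 0.81. Wild-type replicates F and G, the only wild-type arrays of slide 1, had the lowest levels of all 14 arrays for S100a4, S100a6, Anxa2, Itgb1, Cd44 and the second Ahnak probe. Whether the differences on the 2 slides themselves differ was not tested.

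**Figure D4:**
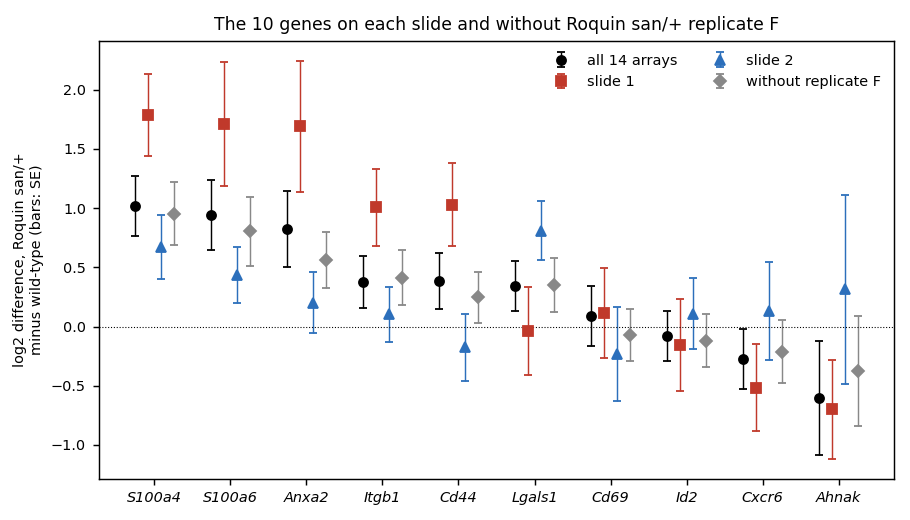
The vertical axis gives the log2 difference (Roquin san/+ minus wild-type) with its SE for each gene's brightest probe, over all 14 arrays (black), on slide 1 alone (red squares), on slide 2 alone (blue triangles) and without Roquin san/+ replicate F (grey). S100a4, S100a6, Anxa2 and Itgb1 are above 0 in all 4, with Anxa2 (0.20) and Itgb1 (0.10) nearest to 0 on slide 2. Cd44 and Lgals1 are near or below 0 on one of the slides.

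Roquin san/+ replicate F carried more RNA of other cell types than the rest. The log2 of the summed level of 9 B-cell markers was 6.18 on that array, between 0.36 and 2.91 on the rest of its genotype and -0.38 to 4.22 on the wild-type arrays. For 10 myeloid markers it was 8.08, against 3.89 to 6.55 and 2.37 to 6.63, and for 6 NK cell markers 4.43, against -0.03 to 1.33 and 0.52 to 1.49. For 5 CD8 markers it was 3.44, against 0.13 to 1.69 and -0.86 to 0.89, for 7 erythroid markers 8.20, against 0.58 to 5.33 and 0.52 to 7.14, and for 4 platelet markers 1.38, against -3.73 to -1.57 and -4.56 to -0.84. Plasma cell markers (5) did not stand apart on it, at 4.61 within 3.80 to 5.65 on the rest of its genotype and 3.34 to 5.81 in wild-type. The 10 T-cell markers summed to 6.21 on replicate F, with 6.07 to 7.42 and 6.35 to 7.41 on the others, and Cd4 was at 0.22 there, with a mean of 1.79 ± 0.76 (SD, n = 7) in Roquin san/+ and 1.89 ± 0.45 (SD, n = 7) in wild-type. All of the B-cell (9 of 9), myeloid (10 of 10), CD8 (5 of 5), plasma cell (5 of 5) and platelet (4 of 4) markers had a higher mean in Roquin san/+, as had 4 of 6 NK cell and 4 of 7 erythroid markers, and 0 of the 10 T-cell markers. Among all genes tested 57.8% were higher. Those means include replicate F, the highest Roquin san/+ array for 8 B-cell, 9 myeloid, 4 CD8 and 4 platelet markers. It was also the highest for 6 NK cell, 6 erythroid and 1 plasma cell markers. Counts without it are not given here. In none of these lists was a marker undetected on all 12 well-placed arrays.

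Several members are made by those other cells too, and replicate F was the highest Roquin san/+ array for Anxa2, Cd44, Cd69 and the second and dim Ahnak probes. Without it S100a4 differed by 0.95 (SE 0.267, exact permutation p = 0.00350), S100a6 by 0.80 (SE 0.291, exact permutation p = 0.0169) and Anxa2 by 0.56 (SE 0.238, exact permutation p = 0.0216). Cd44 was at 0.25 and Itgb1 at 0.41 without it, and Cd69 changed sign, to -0.07. Leaving out both displaced arrays as well, a choice made after seeing the data, gave 0.95 (SE 0.270) for S100a4, 0.68 (SE 0.270) for S100a6, 0.54 (SE 0.264) for Anxa2 and 0.11 (SE 0.228) for Cd44. The part of other cell types in the remaining differences was not tested.

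Related genes were described from lists written out by name, also with earlier results of these data known. Among 32 companions, genes that effector and memory T-cells carry together with the members, 26 were higher and 6 lower, with a median log2 difference of 0.40, and 6 had an unadjusted limma p below 0.05, all higher, beside 3.11% of all genes. Without Roquin san/+ replicate F 25 of the 32 were higher, with a median of 0.25, and without both displaced arrays as well 24, with a median of 0.20. The chemokine gene Ccl5 (1.14, SE 0.587) had the largest positive difference, and Itgb7 (-0.79, SE 0.500), an integrin chain of gut homing, and Lmna (-0.30, SE 0.559), which encodes lamin A, the largest negative ones. Of 14 early activation genes 12 were higher and 2 lower, with a median of 0.23. With 1 array left out that median went from 0.10 (without wild-type replicate C) to 0.40 (without wild-type replicate E), with 9 to 12 of the genes higher. The transcription factor gene Irf4 differed by 0.90 (SE 0.287) and Cd38 by 0.82 (SE 0.613), and at the other end stood Myc at -0.48 (SE 0.178) and the transferrin receptor gene Tfrc at -0.43 (SE 0.457).

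The naive list went the other way. Of the 13 genes tested, 12 were lower and 1 higher in Roquin san/+, with a median log2 difference of -0.32. Dapl1 was at -0.88 (SE 0.432) and Lef1, a transcription factor of naive and early T-cells, at -0.64 (SE 0.305), and the exception was Ly6c1 at 0.36 (SE 0.156). On slide 2 alone, however, 11 of the 13 were higher (37.82% of all probes), with a median of 0.25. On slide 1 alone 1 of 13 was higher (64.3% of all probes), with a median of -0.76. The median was -0.16 without Roquin san/+ replicate C, -0.22 without replicate F and -0.12 with array weights. The 10 T-cell markers were likewise all lower in Roquin san/+, with a median of -0.18, and their part in the naive list was not tested. The 24 partners tested, genes whose proteins bind or act with the members, were split 11 to 13 with a median of -0.01. Their largest differences were Dysf (0.83, SE 0.580) and Itga3 (0.55, SE 0.334) above 0, and Itga1 (-0.85, SE 0.570) and Itgb3 (-0.52, SE 0.311) below. The probes of Dysf and Itga3 were dim. Their highest wild-type level (-4.00) was the lowest signal of replicate E, a moved array. In all of these lists 0 genes had an adjusted limma p below 0.05. Of the 32 companions, 24 were higher on slide 1, beside 64.3% of all probes, and 23 on slide 2, beside 37.82%.

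**Figure D5:**
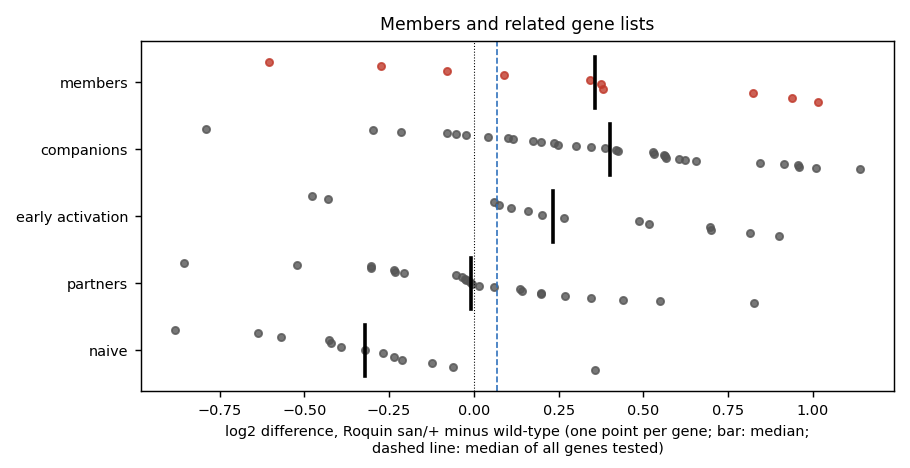
Each point is one gene's log2 difference (Roquin san/+ minus wild-type) by its brightest probe, the vertical bars are the medians of the lists, and the dashed line is the median of all genes tested. Members (median 0.36) and companions (0.40) lie mostly to the right of 0, partners centre on it, and the naive genes (-0.32) lie mostly to the left.

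Within a genotype the members did not move as one. Over the deviations of the 14 arrays from their genotype means, the 45 pairs of members had a median r of 0.134, from -0.720 for Cd69 with the brightest Ahnak probe to 0.899 for S100a4 with S100a6. All pairs with Ahnak use that probe, which holds the AG run and did not go the way of the gene's other probes. Values with the second Ahnak probe are not given here. The high pairs were S100a4 with S100a6 (rho 0.890), Cd44 with Anxa2 (r = 0.844, rho 0.807) and S100a6 with Anxa2 (r = 0.795, rho 0.807). Without replicate F the S100a4 and S100a6 pair was at r = 0.911 (n = 13) and the Cd44 and Anxa2 pair at 0.761. Itgb1 with Anxa2, however, went from 0.359 to 0.796 without that array, and Cd69 with Anxa2 from 0.425 to -0.149. Among all genes, the one most like S100a4 was S100a6, followed by Plscr4 (r = 0.894) and Prr13 (r = 0.877). S100a6 was most like Hmgn3 (0.923), Fam43a (0.919) and Zfp518b (0.912), and Anxa2 most like Ptprj (0.982), Slc2a6 (0.976) and Il15 (0.968). For Cd44 the 3 were Dusp16 (0.925), Lamp2 (0.917) and Chsy1 (0.915), for Itgb1 Il1r2 (0.938), Cpne7 (0.908) and Rilpl2 (0.901), and for Lgals1 Tbcb (0.973), Snx17 (0.969) and Naxe (0.966). Cd69 was most like Prkce (0.937, rho 0.684), with Acox3 (0.866) also among its 3, Cxcr6 like Tctex1d4 (0.886), Sbsn (0.836) and Isoc2b (0.832), and Id2 like Eid2b (0.818), Ust (0.804) and Stap2 (0.80). The points behind each correlation share the 2 slides, and genes are not independent of each other.

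The RefSeq promoter table (GRCm38.p6, 250 bases before to 50 after the start) held 8 of the 10 members, all but Cd69 and Lgals1. Motifs were searched on both strands, and they can overlap each other. TGANTCA, bound by AP-1 factors, was present in 1 of the 8 members, Anxa2, and in 7.81% of the 32851 promoters. TGTGGT, bound by RUNX factors, was in S100a6 (3 times) and Cxcr6, 2 of 8 members, and in 16.8% of promoters. The NF-kB motif was in 5 of 8 members and in 50.8% of promoters, and CANNTG (the E-box, bound by the E-proteins that Id2 inhibits) in 4 of 8 and in 72.3%. The promoter of Anxa2 and that of S100a6 are shown because they hold the AP-1 and RUNX letters, in capitals, and belong to genes with r = 0.795. They cover the 250 bases before the start, at chr9:69453433-69453682 and chr3:90612644-90612893, both on the plus strand of GRCm38.p6, and a match to these letters is a description of the window and not a shown binding site.
Anxa2 promoter: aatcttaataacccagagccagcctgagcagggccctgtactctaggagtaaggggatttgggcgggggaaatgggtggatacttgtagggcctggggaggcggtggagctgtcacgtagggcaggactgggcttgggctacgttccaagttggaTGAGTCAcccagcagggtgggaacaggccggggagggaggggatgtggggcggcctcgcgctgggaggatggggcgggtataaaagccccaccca
S100a6 promoter: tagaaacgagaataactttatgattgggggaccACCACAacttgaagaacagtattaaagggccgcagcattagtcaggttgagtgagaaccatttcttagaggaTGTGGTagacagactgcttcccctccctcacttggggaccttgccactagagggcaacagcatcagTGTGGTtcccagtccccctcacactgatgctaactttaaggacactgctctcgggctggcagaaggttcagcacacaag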

How the data were processed

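CD4+ T-cell RNA with an RNA integrity number above 7 was labelled with Cy3 and hybridised to 14 arrays, per the labels. The authors deposited spot intensities from Agilent Feature Extraction 10.5.1.1 (per the submitters' processing notes), whose processed signal is already background-subtracted, and a table of log2 values whose method is not given in the sources used here. Its columns had medians of 6.20 to 6.24 and followed the spot order of the scanner files, the 2 displaced arrays included. Probe names and mm9 positions came from the scanner files.

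The placement of spots was found from 169 trial shifts per array. The 2 displaced arrays were moved by 2 rows, at the cost of 328 spots on each. Control spots and outlier flags were left out and spots of one probe averaged. Log2 processed signals were centred on the 75th percentile of the array, taken over 24290 probes detected above background in all 12 well-placed arrays. Of 33125 probes well above background on at least 6 of those 12, 289 lacked a value and 32836 entered the test, limma 3.58.1 (R 4.3.3; lmFit and eBayes, Benjamini-Hochberg, threshold 0.05). Detection flags of the 2 moved arrays were not used, since they came from misplaced control spots, and their dimmest probes stand at a lowest signal (-4.32 and -4.00). Single member probes also had a two-sided exact permutation test (Python 3.11.15, scipy 1.17.1), and the model was tested on simulated data. There it recovered 23% of changes of 1 log2 unit and 72% of changes of 2, at an adjusted p below 0.05. The simulated noise was independent for each probe and array, with no effect of slide, other cell types or displaced spots. These shares therefore need not hold for the real arrays.

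A gene was represented by its tested probe with the highest mean. Named were all members, their partners, the 2 largest differences each way in every list, and the 3 genes most alike each member, some of which are not reported here. The members and lists were chosen with earlier results of these data known. Lists are described by counts and medians without a test. Alternatives covered background, scaling, filter, slide, the replicate letter, array weights, variance model, probe choice and each array left out. Groups came from the labels.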

Additional observations from a re-analysis of the deposited data

Results flagged for a closer look

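Each member's levels in each genotype, and the median over the members, were screened for an array standing apart from the other 6 by more than Dixon's 95% critical value (the gap to its neighbour over the whole range). This made 22 groups, of which chance flags about 1 in 20, and 4 arrays stood apart. Anxa2 was at 3.47 on Roquin san/+ replicate F, with the next array at 1.97 (ratio 0.719). This is the array with high B-cell, myeloid and NK cell markers. Itgb1 was at 2.74 on Roquin san/+ replicate G, one of the 2 moved arrays, with the next at 2.05 (ratio 0.690). Lgals1 was at 0.72 on Roquin san/+ replicate C, the dimmest array, with the next at 1.66 (ratio 0.595). Cd69 was at -2.12 on wild-type replicate C, with the next at -1.36 (ratio 0.824).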

How the results depend on the processing

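S100a4, S100a6, Anxa2 and Itgb1 kept a positive difference under all 32 alternatives, over ranges of 0.67 to 1.79, 0.43 to 1.71, 0.20 to 1.69 and 0.10 to 1.01, and 0 probes had an adjusted p below 0.05 under any alternative fitted. Some of the 32 could not change a difference, namely the filters, the replicate block alone and the variance model. For S100a4 and S100a6, each with a single probe, the mean of the probes could not change it either. With any 1 array removed, S100a4 stayed between 0.87 and 1.12 and S100a6 between 0.80 and 1.103. The members' median (0.36) was 0.56 on slide 1 alone and 0.61 with the replicate block and slide as a block together, but 0.17 on slide 2 alone, 0.17 under the deposited probe names, 0.18 without the displaced arrays and replicate F and 0.24 with the 75th percentile over all probes, and 0.27 to 0.39 with 1 array left out. Signs turned for Cd44 on slide 2 (-0.18) and for Lgals1 on slide 1 (-0.040). Cd69 turned to -0.031 with the 75th percentile over all probes, -0.058 with slide as a block, -0.23 on slide 2, -0.054 with the replicate block and slide as a block, -0.021 without the displaced arrays and replicate F (added after seeing the data), -0.073 without Roquin san/+ replicate F and -0.033 without wild-type replicate C (range with 1 array left out -0.073 to 0.24). Id2 turned to 0.11 on slide 2, 0.065 with the replicate block and slide as a block, 0.020 without Roquin san/+ replicate A and 0.024 without C (range with 1 array left out -0.18 to 0.024) and 0.00460 as the mean of its probes, and was -0.19 without the displaced arrays and replicate F. Cxcr6 was at 0.13 on slide 2, and Ahnak at 0.31 on slide 2 and 0.17 as the mean of its probes. The causes were not tested.

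Probes with an unadjusted p below 0.05 numbered 997, but 1521 in the authors' log2 values, 54 under the deposited probe names, 2434 without both displaced arrays, 1563 without these and Roquin san/+ replicate F, 536 when detection on all 7 arrays of a genotype was required, 479 with slide as a block, 3028 on slide 1, 583 on slide 2, 645 with the replicate block and slide as a block and 3241 with array weights. With 1 array left out they ran from 555 (without wild-type replicate A) to 3206 (without wild-type replicate E), and were 1982 without Roquin san/+ replicate E, 664 without F and 652 without wild-type replicate F. Replicate letters gave no pairing: same-lettered arrays' deviations had correlations of -0.279 to 0.411, and 1 of 7 letters was its own best match. The replicate block alone gave 799 such probes. It could not change the difference of a member, since each letter holds 1 array of each genotype. Low signal limits the dim Cd44 probe and the variant Itgb1 probe, and the lowest signal of the 2 moved arrays bounds them there. The dim Ahnak probe and the Anxa2 coding probe likewise stood at the lowest signal of wild-type replicate E.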

Other observations

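Probes holding AGAGAGAG had a median log2 difference of -0.48 between the genotypes, those with CTCTCTCT a median of 0.64 and those with neither a median of 0.05. The median level of the AGAGAGAG probes ran from -2.95 on Roquin san/+ replicate F to -0.13 on Roquin san/+ replicate E, and wild-type replicates C (-0.15) and E (-0.18) stood near the latter. The brightest Ahnak probe was lowest on replicate F (0.83) and highest on wild-type replicates C (3.90) and E (4.28) and Roquin san/+ replicate E (4.09).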
